A study of Mus musculus with 3 samples.

Results

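Genes of the TNF receptor superfamily and of the NF-kB pathway were described in messenger RNA of a sorted mouse bone marrow population. They were the listed genes whose names begin with Tnfrsf, Tnfsf, Tnfaip, Nfkb or Ikbk, or with Traf, Irak, Ripk or Tab and a number, together with Rel, Rela and Relb. Of 11419 listed genes, 61 had such a name: 13 receptors, 8 entries among the ligands, 10 adaptors, 3 TRAF-binding partners, 9 kinases or kinase subunits, 5 transcription factor subunits, 7 inhibitors and 6 genes of another or uncertain role. All 3 libraries came from 1 group. The cells were sorted from tibia and femur marrow of C57BL/6 mice, an inbred strain, as Cd11b+F4/80+CD169+CX3CR1neg, with no treatment, age or sex given, and no control population was sampled. Whether the 3 libraries are from separate mice is not in the labels. The p-values therefore reflect the variation among 3 libraries alone, and that variation may be technical.

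Cytokines of the TNF family bind trimeric receptors of the Tnfrsf family. A receptor with a death domain recruits death-domain adaptors and the kinase Ripk1, and most of the others bind TRAF proteins directly; Toll-like and IL-1 receptors reach the same machinery through Myd88, the Irak kinases and Traf6. These complexes activate the kinase Map3k7 (TAK1) through its Tab partners and then the IkB kinase, which marks IkB proteins for degradation and frees NF-kB dimers. In marrow myeloid cells the pathway is known for inflammatory gene expression and for survival of neutrophils and macrophages, and several of its inhibitors are themselves NF-kB target genes.

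The libraries held 5150020, 40149274 and 37604930 reads assigned to listed genes in replicates 1, 2 and 3, so replicate 1 was the shallowest. The deposited unit was CPM, the reads of a gene per 1000000 reads assigned to listed genes. A level of 10 CPM corresponded to 51.5, 401 and 376 reads. Where no read was found, as many as 3 could have been missed, which is 0.583, 0.0747 and 0.0798 CPM for the 3 libraries in that order; such limits take in counting error only. The labels call the cells macrophages, and the markers went against that name. All 9 neutrophil precursor markers, among them Ngp, Ltf, Camp and Elane, were above 10 CPM and summed to 212960, 212500 and 176228 CPM. The 9 marrow macrophage markers summed to 232, 223 and 252 CPM, with 5 above 10 CPM, 3 below and 1 not called. Those above were Vcam1, Csf1r, Cd68, Adgre1 and C1qa, with means from 74.3 CPM for Vcam1 to 18.7 CPM for C1qa. C1qb was not called, and Siglec1, Spic and Mertk were below. Siglec1, which encodes CD169, had 0.388, 3.66 and 4.57 CPM. The cells are therefore called here by their gate. Replicate 1 also held more RNA of the basophil and mast cell markers, which summed to 978, 137 and 138 CPM, and of the erythroid markers, at 683, 378 and 345 CPM. The eosinophil markers summed to 450, 756 and 1101 CPM and were highest in replicate 3. In bulk RNA, fewer cells of a type and less RNA per cell cannot be told apart.

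Promoter sequence was looked at first, since several inhibitors of the pathway are described as its own targets. Of the 61 genes, 49 matched a promoter in the RefSeq table of GRCm38.p6 by symbol. The 250 bases before the RefSeq start were searched on both strands for the NF-kB consensus. Of these 49 genes, 9 (18.4%) held it, against 4.46% of 27025 gene symbols in that table. Those symbols are not limited to the 11419 listed genes, so the shares are over unlike sets of genes. By role, 4 of 7 inhibitors held a match (Nfkbia, Nfkbie, Nfkbid and Tnfaip3), as did 2 of 3 transcription factor subunits (Rel and Nfkb2), 1 of 9 adaptors (Traf3), 1 of 11 receptors (Tnfrsf8) and 1 of 4 genes of another role (Tnfaip8l1). None of 7 kinases and none of 6 ligands held one. A match is a description of letters and not a site shown to be bound, and no match says only that these letters were not in the window. The windows below show 4 inhibitors, 1 subunit and 1 adaptor, read 5′ to 3′ on the strand of the gene. Capitals mark the matches, which may lie on either strand. They lie on GRCm38.p6 at chr12:55492648-55492706 (minus strand, Nfkbia), chr17:45555564-45555633 (plus, Nfkbie), chr7:30422156-30422264 (plus, Nfkbid), chr10:19015411-19015452 (minus, Tnfaip3), chr11:23771021-23771091 (minus, Rel) and chr12:111166330-111166369 (plus, Traf3).
Nfkbia: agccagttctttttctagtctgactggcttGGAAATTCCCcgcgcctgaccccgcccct
Nfkbie: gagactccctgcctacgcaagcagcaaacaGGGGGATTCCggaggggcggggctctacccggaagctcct
Nfkbid: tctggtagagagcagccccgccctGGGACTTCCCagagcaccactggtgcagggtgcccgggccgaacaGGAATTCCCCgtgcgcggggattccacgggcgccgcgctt
Tnfaip3: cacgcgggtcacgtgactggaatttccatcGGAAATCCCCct
Rel: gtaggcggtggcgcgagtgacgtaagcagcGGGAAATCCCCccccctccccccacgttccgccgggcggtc
Traf3: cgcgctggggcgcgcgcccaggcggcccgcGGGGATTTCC
In Nfkbia the match began 29 bases before the start, and in Nfkbie 106 bases before it. Nfkbid held 2 separate matches, and those of Rel were 2 that overlapped by all but 1 base. Tnfaip3 held 2 matches, of which the one nearer the start, 12 bases before it, is shown.

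With no second population to compare, the level of each gene was set against a fixed level of 10 CPM with limma (see the plot of all genes by library). Among the 59 that were tested, 39 stood above 10 CPM, 17 stood below and 3 were not called (Tnfrsf18, Tnfrsf23 and Relb), at a Benjamini-Hochberg adjusted p under 0.05 over 11123 genes. Tnfsf8 and Tnfsfm13 were listed at 0 in all libraries and were not tested. The genes above were 66.1% of the 59 tested, against 58.8% of all genes tested, and the genes below were 28.8%, against 28.3%. Both shares were thus near those of all genes. The median of the mean levels was 26.6 CPM for the 61 genes and 19.7 CPM for all listed genes. Without replicate 2, 11 genes rather than 17 were below: Traf1, Tnfsf10 and Tnfrsf11a then fell short of the read minimum, and Ripk2, Tnfsf13 and Tnfaip8l1 were no longer called. Of all genes tested, 57.6% were then above and 23.1% below, a share below that was also smaller over the whole table. With the level at 5 CPM, 42 of these genes were above and 13 below, against 69.3% and 16.8% of all genes. With it at 20 CPM, 31 were above and 21 below, against 44.3% and 42.2%. On a level of 10 CPM per kb of exon, 19 were above and 31 below, against 26.1% and 62.8%. With no filter on low reads, 38 were above and 17 below, against 55.5% and 28%.

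**Figure D1:**
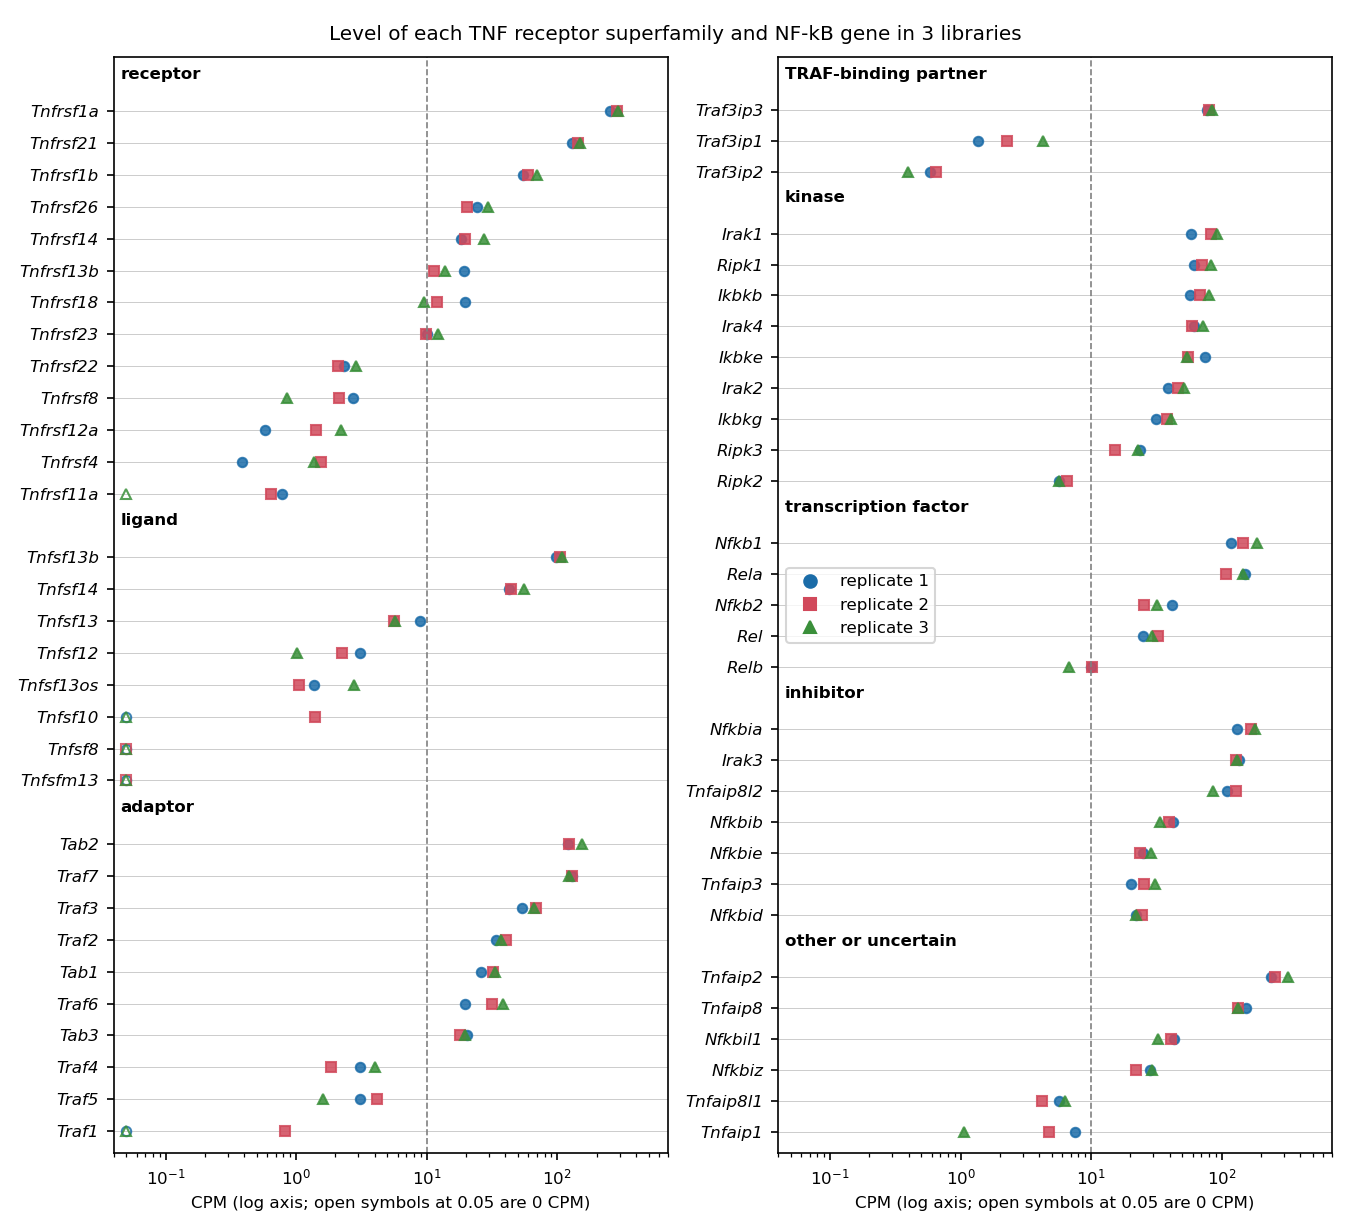
Level of each of the 61 genes in CPM on a log axis, grouped by role, with 1 symbol per library, open symbols for 0 CPM and a dashed line at 10 CPM. All 7 inhibitors sit right of the line in every library, whereas receptors and ligands lie on both sides of it, from Tnfrsf1a near 279 CPM down to genes at 0.

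The receptors were spread over a wide range. Of 13, 6 were above 10 CPM, 5 were below and 2 were not called. Those above were 46.2% and those below 38.5%, against 58.8% and 28.3% of all genes tested. At a level of 20 CPM, 3 were above and 8 below, against 44.3% and 42.2% of all genes. Both death-domain receptors were above, as were 3 of 8 receptors that bind TRAF proteins without a death domain, of which 4 were below. Of 3 receptors of the mouse decoy cluster on chromosome 7, Tnfrsf26 was above, Tnfrsf22 below and Tnfrsf23 not called.

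Tnfrsf1a encodes TNFR1, the main death-domain receptor for TNF. It had 254, 289 and 294 CPM in replicates 1, 2 and 3 (mean 279 ± 21.7 CPM, SD, n = 3) and was 4.67 above 10 CPM on the log2(CPM + 1) scale (SE 0.11, limma adjusted p = 9.48e-21). Its lowest library was still far above the level. Tnfrsf21, the death-domain receptor DR6, had 130, 144 and 150 CPM and lay 3.69 above on that scale (SE 0.12, limma adjusted p = 2.52e-18). Tnfrsf1b, which encodes TNFR2 and signals through TRAF2, had 55.0, 60.0 and 70.5 CPM. In CPM, all 3 genes had their lowest value in replicate 1 and their highest in replicate 3. The TMM scaling factors of edgeR were 0.968, 0.971 and 1.06 for replicates 1, 2 and 3, and CPM values are not divided by them. For Tnfrsf1a and Tnfrsf21, replicates 2 and 3 differed by less than these factors, so their order depends on the scaling. Their levels per kb of exon, the scale on which genes can be compared, were 108 ± 8.36 CPM per kb for Tnfrsf1a, 34.4 ± 2.55 for Tnfrsf21 and 16.2 ± 2.08 for Tnfrsf1b, and that of Tnfrsf1a was the highest of the 61 genes.

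Tnfrsf14, which encodes HVEM, a receptor for the ligand LIGHT, had 18.3, 19.8 and 27.7 CPM and was above 10 CPM in each library. Tnfrsf26 had 24.3, 20.3 and 29.6 CPM. Tnfrsf13b, the receptor TACI for BAFF and APRIL that is best known from B cells, had 19.2, 11.4 and 13.9 CPM, with its highest value in replicate 1. It was 0.49 above 10 CPM on the log2(CPM + 1) scale (SE 0.20, limma adjusted p = 0.0284), and without replicate 1 this was 0.30, with an adjusted p of 0.211. The 7 B cell markers summed to 237, 202 and 250 CPM and were highest in replicate 3, so the libraries were not in the order of Tnfrsf13b. The basophil and mast cell markers and the erythroid markers, given above, were highest in replicate 1 as Tnfrsf13b was, and their part in this value was not tested.

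Tnfrsf18, which encodes the costimulatory receptor GITR, had 19.8, 11.9 and 9.55 CPM, also highest in replicate 1. Its log2 level over 10 CPM was 0.36 (SE 0.22, limma adjusted p = 0.122). Tnfrsf23, a decoy receptor for TRAIL in the mouse, had 10.1, 9.84 and 12.3 CPM and lay at the level itself. Its neighbour Tnfrsf22 had 2.33, 2.09 and 2.90 CPM, and because such close copies can share reads, the split between the genes of that cluster is uncertain.

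The receptors below 10 CPM were also low in each library. Tnfrsf8, which encodes CD30, had 2.72, 2.12 and 0.851 CPM. Tnfrsf12a, which encodes Fn14, the receptor for TWEAK, had 0.583, 1.42 and 2.21 CPM. These 2 genes ran in opposite orders over the libraries. Tnfrsf4, which encodes OX40 of activated T cells, had 0.388, 1.54 and 1.38 CPM. Tnfrsf11a, which encodes RANK, the receptor for the osteoclast factor RANKL, had 0.777, 0.648 and 0 CPM, and the 0 in replicate 3 allows up to 0.0798 CPM. Of the receptor names in the role lists, Tnfrsf9, Tnfrsf10b, Tnfrsf11b, Tnfrsf13c, Tnfrsf17, Tnfrsf19 and Tnfrsf25 were not analysed here.

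The ligands were mostly low, and 2 stood above the level. Of 6 tested, 33.3% were above and 66.7% below, against 58.8% and 28.3% of all genes tested. Tnfsf13b, which encodes the B cell survival factor BAFF, had 98.4, 106 and 109 CPM, a mean of 104 ± 5.50 CPM that was 3.26 above 10 CPM on the log2(CPM + 1) scale (SE 0.12, limma adjusted p = 5.07e-17). Tnfsf14, which encodes LIGHT, had 42.9, 44.2 and 55.8 CPM and was 2.13 above (SE 0.15, limma adjusted p = 4.67e-12). The highest library was 1.11 times the lowest for Tnfsf13b and 1.30 times for Tnfsf14. Tnfsf10, which encodes TRAIL, had 0, 1.39 and 0 CPM, with all of its 56 reads in replicate 2, and Tnfsf8, the CD30 ligand, was at 0 in every library. Tnfsf4, Tnfsf9, Tnfsf11, Tnfsf15 and Tnfsf18 were not analysed here.

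Tnfsf13, which encodes APRIL, and Tnfsf12, which encodes TWEAK, are neighbours on chromosome 11, 465 bp apart. The role list of ligands also holds Tnfsf13os, an antisense RNA there, and Tnfsfm13, a readthrough of both genes. Tnfsf13 had 8.93, 5.63 and 5.72 CPM, Tnfsf12 had 3.11, 2.24 and 1.011 CPM and Tnfsf13os had 1.36, 1.05 and 2.79 CPM. All 3 were called below 10 CPM, and Tnfsf13 only just (limma adjusted p = 0.0475; edgeR adjusted p = 0.0691; limma adjusted p = 0.253 without replicate 2 and 0.148 without replicate 3). The exons of these genes overlap one another, 60.0% of those of Tnfsf13 and 48.3% of those of Tnfsf12 by length, and whether the counting used strand is not given in the sources used here, so the split of reads among them is uncertain.

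Among the adaptors, 7 of 10 were above 10 CPM and 3 were below. These shares were 70% and 30%, against 58.8% and 28.3% of all genes tested. At a level of 10 CPM per kb of exon 2 were above and 6 below, against 26.1% and 62.8% of all genes. Tab2, a ubiquitin-binding partner of TAK1, had 121, 124 and 153 CPM, and its relatives Tab1 and Tab3 averaged 30.5 ± 3.93 and 19.4 ± 1.23 CPM. Traf7, an atypical member that lacks the TRAF domain, had 129, 130 and 124 CPM. Traf3, which restrains the noncanonical pathway, had 53.8, 68.6 and 66.1 CPM, and Traf2, which joins TNF receptors to the ubiquitin ligases, had 33.8, 40.2 and 36.8 CPM. Tab2, Traf7, Traf3 and Traf2 each varied by less than 1.5 times between libraries. Traf6, the ubiquitin ligase of the Toll-like and IL-1 receptor pathway, had 19.8, 31.7 and 38.3 CPM, 1.93 times as much in its highest as in its lowest library.

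The 3 low adaptors were Traf4, Traf5 and Traf1. Traf5 had 3.11, 4.13 and 1.60 CPM and Traf4 had 3.11, 1.84 and 3.99 CPM. Their libraries were in different orders, replicate 2 being the highest for Traf5 and the lowest for Traf4. Traf1, which lacks a ubiquitin ligase domain and is itself a known NF-kB target, had 0, 0.822 and 0 CPM, all of its reads lying in replicate 2. Of the TRAF-binding partners, Traf3ip3 had 77.1, 80.6 and 84.3 CPM. Traf3ip1, a protein of the primary cilium, had 1.36, 2.27 and 4.28 CPM, and Traf3ip2, the adaptor Act1 of IL-17 receptors, had 0.583, 0.648 and 0.399 CPM.

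Of the 9 kinases and kinase subunits, 8 were above 10 CPM and Ripk2 was below. These shares were 88.9% and 11.1%, against 58.8% and 28.3% of all genes tested. At 10 CPM per kb of exon 2 were above and 4 below, against 26.1% and 62.8% of all genes. The Irak kinases act next to Myd88: Irak1 had 58.1, 83.1 and 91.6 CPM, Irak4 had 61.9, 59.4 and 72.0 CPM and Irak2 had 38.6, 46.1 and 51.5 CPM. Irak1 was thus lowest in replicate 1, as Traf6 was. Ikbkb, the catalytic subunit IKK2 of the IkB kinase, had 57.7, 68.5 and 80.2 CPM, and Ikbkg, its regulatory subunit NEMO, had 31.7, 38.4 and 41.1 CPM. The IKK-related kinase Ikbke ran the other way, with 74.2, 55.2 and 54.7 CPM.

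Ripk1, the kinase bound by TNFR1, had 61.9, 70.4 and 82.6 CPM, and Ripk3, the kinase of necroptosis, had 23.5, 15.3 and 23.0 CPM. Both were above 10 CPM in every library. Ripk2, which acts below the NOD receptors, had 5.63, 6.53 and 5.64 CPM, was 0.67 below 10 CPM on the log2(CPM + 1) scale (a log2 level of -0.67, SE 0.24, limma adjusted p = 0.0145), and without replicate 2 had an adjusted p of 0.0652.

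Of the 5 transcription factor subunits, 4 were above 10 CPM (80%, against 58.8% of all genes tested) and Relb was not called. At 10 CPM per kb of exon, 1 was above and 3 were below, against 26.1% and 62.8% of all genes. Rela, which encodes p65, had 152, 107 and 146 CPM, and Nfkb1, which encodes p105 and p50, had 117, 146 and 187 CPM. Each was above 10 CPM by more than 3 on the log2(CPM + 1) scale, at 3.61 for Rela (SE 0.13, limma adjusted p = 1.50e-17) and 3.75 for Nfkb1 (SE 0.13, limma adjusted p = 1.22e-17). Rel, which encodes c-Rel, had 25.0, 32.5 and 29.4 CPM. Nfkb2, which encodes p100 and p52, had 41.6, 25.4 and 32.1 CPM. Per kb of exon, Rela was at 44.02 ± 7.95 CPM per kb, Nfkb1 at 12.4 ± 2.93, Nfkb2 at 7.21 ± 1.77, Rel at 3.88 ± 0.50 and Relb at 2.31 ± 0.492. Relb, the partner of p52 in the noncanonical pathway, had 9.90, 10.2 and 6.75 CPM (log2 level -0.16, SE 0.23, limma adjusted p = 0.501).

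All 7 inhibitors were above 10 CPM, against 58.8% of all genes tested. Of them, 4 were above when the level was set at 20 CPM or at 10 CPM per kb of exon. Of all genes, 44.3% and 26.1% were above at those levels. The role takes in only inhibitors whose names fit the rule given at the start, and genes with other names were not counted in it. Nfkbia, which encodes IkB alpha, had 132, 167 and 181 CPM and was 3.86 above 10 CPM on the log2(CPM + 1) scale (SE 0.12, limma adjusted p = 2.09e-18). Irak3, which encodes the inhibitory IRAK-M of myeloid cells, had 137, 129 and 130 CPM and was the steadiest of the 7. Tnfaip8l2, which encodes the immune regulator TIPE2, had 110, 128 and 86.2 CPM. Of the other IkB genes, Nfkbib had 42.5, 39.4 and 34.0 CPM, and Nfkbie had 25.0, 23.5 and 28.8 CPM. The order of these 2 genes over the libraries differed, Nfkbib being lowest in replicate 3 and Nfkbie highest there. Tnfaip3, which encodes the ubiquitin-editing enzyme A20, had 20.2, 25.4 and 30.9 CPM, and Nfkbid, which encodes the nuclear IkBNS, had 21.9, 24.7 and 22.1 CPM. Of the 4 inhibitors with a promoter match, Nfkbia was the highest of the 7 per kb of exon, at 99.2 ± 15.7 CPM per kb, and Nfkbid, Nfkbie and Tnfaip3 were the 3 lowest, at 9.76 ± 0.650, 8.47 ± 0.893 and 3.53 ± 0.739 CPM per kb.

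The remaining names do not share a role. Tnfaip2, a TNF-induced gene, had 237, 256 and 320 CPM, a mean of 271 ± 43.3 CPM. Tnfaip8 had 153, 132 and 133 CPM, Nfkbil1 had 43.1, 40.8 and 32.5 CPM, and Nfkbiz, which encodes the nuclear IkB zeta and can activate genes, had 28.3, 22.1 and 29.3 CPM. These 4 genes were above 10 CPM. Tnfaip8l1 had 5.63, 4.21 and 6.36 CPM, and Tnfaip1, a substrate adaptor of a cullin ubiquitin ligase, had 7.57, 4.78 and 1.06 CPM; both were below. Without replicate 3, where Tnfaip1 was lowest, its log2 level over 10 CPM was -0.64 in place of -1.23 and the call held (adjusted p = 0.0411).

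**Figure D2:**
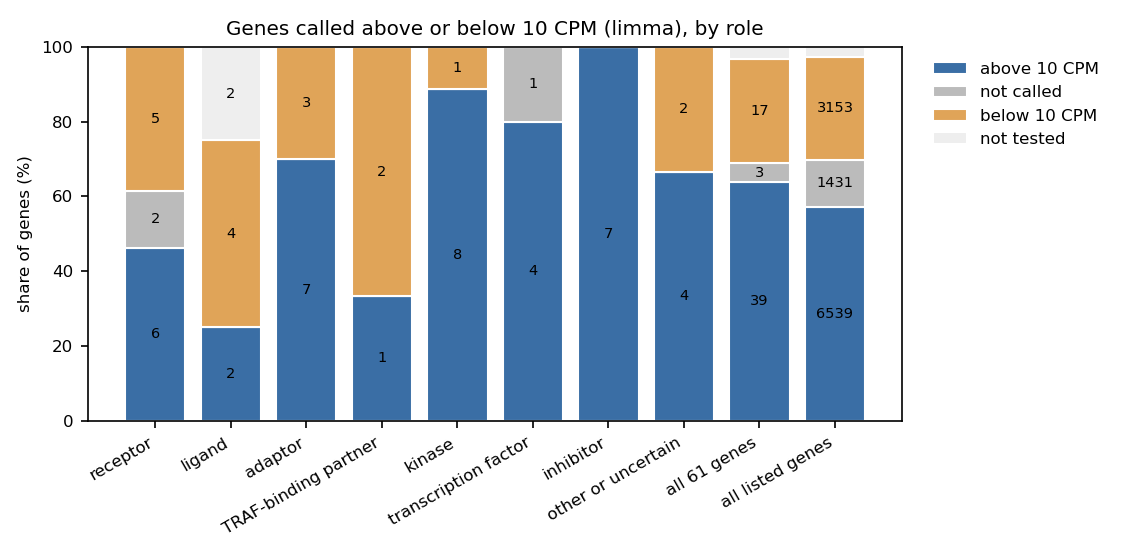
Share of the genes of each role called above 10 CPM, not called, called below or not tested, in percent, with the number of genes in each segment. The inhibitors among the 61 genes, which were chosen by name, are all above 10 CPM (7 of 7). The ligands have the lowest number above among the roles with 5 or more genes (2 of 8). The 61 genes together have nearly the shares of all listed genes.

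Receptors, adaptors and inhibitors were then set side by side within each library, as medians over the genes of a role. The median receptor had 18.3, 11.4 and 12.3 CPM in replicates 1, 2 and 3, the median adaptor 23.2, 31.9 and 35.1 CPM and the median inhibitor 42.5, 39.4 and 34.0 CPM, against 19.0, 19.1 and 20.5 CPM for all listed genes. The median receptor was thus under that of all genes in each library and the medians of adaptor and inhibitor above it, but in replicate 3 the adaptor median was the higher of those 2 roles. The kinases had medians of 57.7, 55.2 and 54.7 CPM and the transcription factor subunits 41.6, 32.5 and 32.2 CPM. These are medians of 5 to 13 genes and describe the roles with no test.

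Per kb of exon the receptor median was no longer under that of all genes in 2 of 3 libraries. The receptors had 6.78, 4.005 and 4.89 CPM per kb, the adaptors 4.85, 5.96 and 6.03 and the inhibitors 19.6, 18.2 and 15.7, against 4.12, 4.18 and 4.64 for all listed genes. Of receptors, ligands, adaptors, kinases, transcription factor subunits and inhibitors, the inhibitors had the highest median in each library. The length of the longest protein-coding transcript was also used in place of the union of exons, a choice made after seeing the data. The inhibitors then had 20.6, 19.1 and 16.5 CPM per kb, followed by the kinases at 12.1, 14.4 and 16.1. On that length the receptors had 7.52, 6.54 and 8.03, the adaptors 5.41, 7.43 and 7.78 and all listed genes 6.51, 6.70 and 7.35. The adaptor median was thus under the receptor median in replicates 1 and 3, and under that of all genes in replicate 1. The ligands had the lowest median of these 6 roles on either length in each library, from 0.704 to 2.17 CPM per kb. That median was over 8 entries on the union of exons, among them the antisense RNA Tnfsf13os and the readthrough Tnfsfm13. On the longest transcript it was over 7 entries, without Tnfsf13os. The 3 TRAF-binding partners, a group too small to rank, had medians of 0.366, 0.611 and 1.15 CPM per kb of the union of exons, under those of the ligands. A union of exons is long for a gene with many isoforms, as for Ikbkb and Nfkb1, and so lowers its level per kb.

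**Figure D3:**
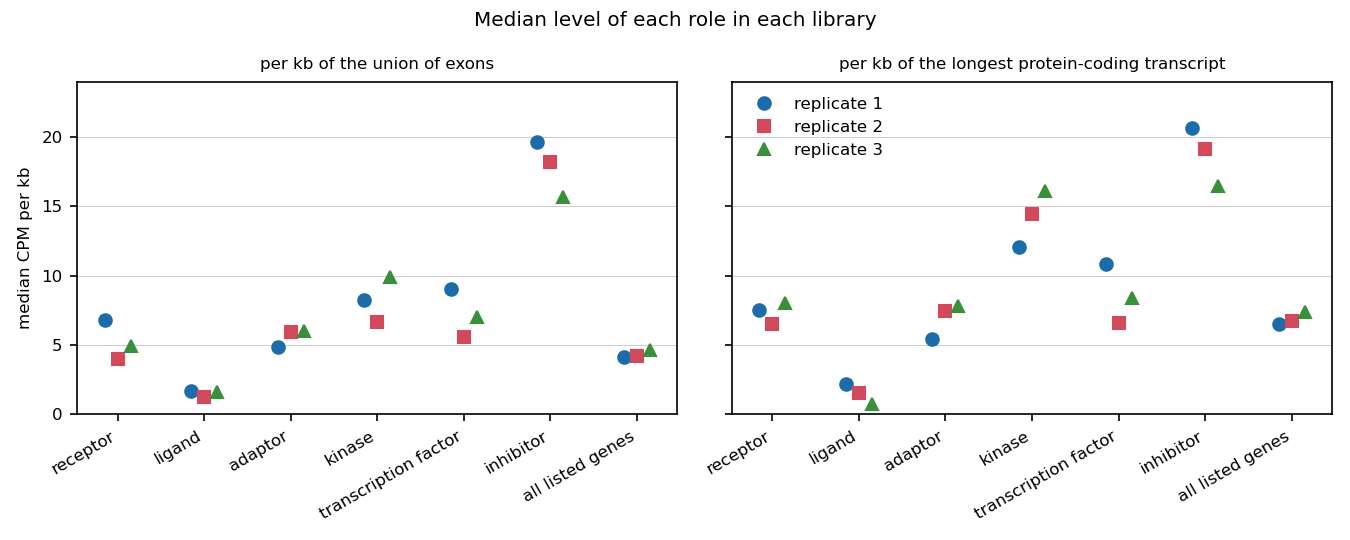
Median level of receptors, ligands, adaptors, kinases, transcription factor subunits and inhibitors in CPM per kb in each library, on the union of exons (left) and the longest protein-coding transcript (right), beside all listed genes. Of these 6 roles, inhibitors are the highest and ligands the lowest in every library on both lengths, and replicate 3 brings inhibitors (16.5) and kinases (16.1) close together on the right.

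Single genes overlapped widely between roles. Per kb of the union of exons, the highest were Tnfrsf1a at 108, Nfkbia at 99.2, Tnfaip8l2 at 96.3 and Tnfaip2 at 54.4 CPM per kb, a receptor, 2 inhibitors and a gene of another role. On the longest transcript the same 4 genes were at 129, 101, 96.3 and 72.0 CPM per kb, in the same order. The SD of 15.7 CPM per kb for Nfkbia and of 18.7 for Tnfaip8l2 was larger than the distance between the 2 genes.

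Partners in the pathway were compared within each library as 8 log2 ratios of CPM per kb, and tested over libraries by exact permutation of signs, two-sided. With 3 libraries that test gives no p under 0.25, so none can pass 0.05. Tnfrsf1b was at 14.4, 15.7 and 18.5 CPM per kb, against 98.0, 112 and 113 for Tnfrsf1a, a log2 ratio of -2.73 ± 0.11 (SD, n = 3). The receptor for TNF without a death domain was thus the lower in 3 of 3 libraries, by more than the libraries varied. Nfkbia was at 81.9, 103 and 112 CPM per kb, against 19.6, 18.2 and 15.7 for Nfkbib, a log2 ratio of 2.46 ± 0.39. The ratio of Nfkbia to Rela, an inhibitor and the subunit it holds back, was 1.17 ± 0.42. All of these had the same sign in each library (p = 0.25 by the exact permutation test, adjusted p = 0.286 over 8 ratios).

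Relb was at 2.55, 2.63 and 1.74 CPM per kb, against 49.5, 34.9 and 47.7 for Rela, a log2 ratio of -4.20 ± 0.51, or -3.59 ± 0.52 on the longest transcript. Nfkb2 was at 9.06, 5.54 and 7.01 CPM per kb, against 9.69, 12.1 and 15.5 for Nfkb1. The mean of the log2 ratios was -0.78 ± 0.59, and replicate 1 was closest to equal levels at -0.10. Nfkb1 has a long union of exons, and on the longest transcript the ratio was -2.07 ± 0.60, with -1.39 in replicate 1, so its size depended on the length used while Nfkb2 stayed the lower in 3 of 3 libraries. Irak3 was at 37.2, 35.0 and 35.4 CPM per kb, against 12.3, 11.8 and 14.3 for Irak4, a log2 ratio of 1.48 ± 0.16. The inhibitory member of the pair was the higher in 3 of 3 libraries.

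The last pair of ratios changed sign with the length used. Ripk3 and Ripk1 differed by less than the spread of the libraries per kb of exon (log2 ratio 0.05 ± 0.40, p = 0.75 by the exact permutation test). On the longest transcript that ratio was -0.093. Ikbkb over Chuk, the subunits IKK2 and IKK1, had a log2 ratio of -0.36 ± 0.06, but on the longest transcript it was 1.34, so which of them is the higher per kb cannot be told from these lengths.

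**Figure D4:**
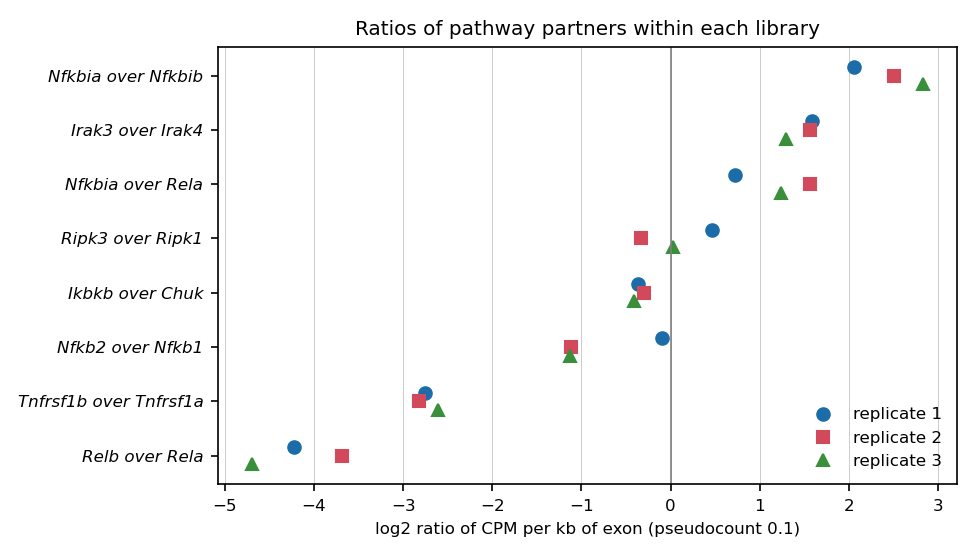
Log2 ratio of CPM per kb of exon (pseudocount 0.1) for 8 pairs of pathway partners, with 1 symbol per library and a line at equal levels. Relb over Rela lies farthest to the left at -4.20 and Nfkbia over Nfkbib farthest to the right at 2.46, and Ripk3 over Ripk1 has libraries on both sides of 0.

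The libraries agreed about as well on these genes as on others. Of the 51 genes whose mean reached 2 CPM, 6 differed by 2 times or more between the highest and the lowest library (11.8%), against 17.3% of all 9820 such genes, and the median of that ratio was 1.33, against 1.43 for all. The 6 were Tnfaip1 at 7.12 times, Traf3ip1 at 3.15, Tnfsf12 at 3.07, Traf5 at 2.59, Traf4 at 2.16 and Tnfrsf18 at 2.07. All but Tnfrsf18 were under 10 CPM in each library. For 42 of the 51 the exact 95% Poisson intervals of the recovered reads did not all overlap, a share of 82.4%, against 82.6% of all such genes. Replicate 3 was the highest library for 28 of the 51 genes (54.9%, against 50.04% of all such genes) and replicate 1 the lowest for 25 (49.0%, against 43.95%). These shares were near those of all genes.

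**Figure D5:**
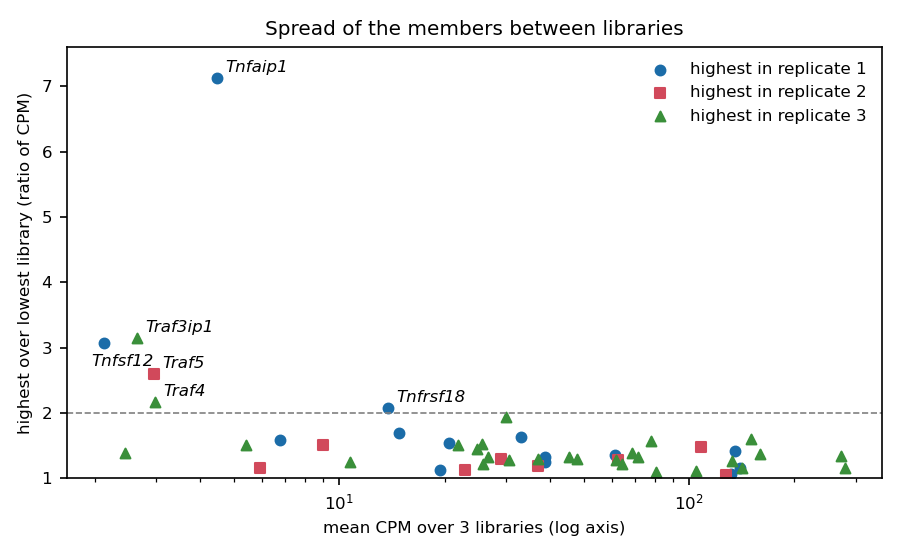
Highest over lowest library against the mean level in CPM (log axis) for the 51 genes whose mean reached 2 CPM, coloured by the library that was highest, with a dashed line at 2 times. Tnfaip1 stands alone at 7.12, and the other named genes lie between 2.07 and 3.15.

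Genes of the same pathway that bear other names were read from 7 lists. Of 84 listed genes in them, 63 were above 10 CPM, 15 were below, 3 were not called and 3 were not tested, with a median of 33.4 CPM. Of the 81 tested, 77.8% were above and 18.5% below, against 58.8% and 28.3% of all genes tested, and the counts of the single lists below, of 6 to 20 tested genes, stand beside those same shares. Among TNF and lymphotoxin family genes named otherwise, a list that also held the protease gene Adam17, 6 of 7 were above. Adam17 averaged 43.0 ± 1.12 CPM and was above. Ltb, a lymphotoxin subunit, had 123, 97.8 and 101 CPM, and Relt had 93.6, 80.1 and 92.6. Ltbr, the lymphotoxin beta receptor, had 71.7, 85.1 and 77.1. Tnf itself had 35.5, 28.4 and 30.02 CPM, and Fas, a death receptor, had 13.2, 21.2 and 16.8 CPM. The RNA of the ligand TNF was thus present beside that of both its receptors, while Cd40, the receptor of the helper T cell signal, was at 0 in every library, a limit of 0.0747 CPM in the deepest.

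Downstream of the receptors, most genes of the complexes were above 10 CPM. Of 9 listed genes of the death-domain and caspase-8 arm, 7 were above, with Cflar, the caspase-8 inhibitor cFLIP, at 64.5, 77.6 and 92.5 CPM, Bid, a caspase-8 substrate, at 58.1 ± 3.12 and Casp8 itself at 35.9 ± 3.98 CPM. Zbp1, a nucleic acid sensor that binds Ripk3, had 5.44, 9.84 and 15.3 CPM and was not called, and Cradd had 2.72, 2.42 and 3.803 CPM and was below. Of 20 ubiquitin enzymes and their partners 17 were above, with Tax1bp1, a partner of A20, at 163, 195 and 236 CPM and Rbck1, the LUBAC subunit HOIL-1, at 110, 113 and 83.8. Tnip1, another A20 partner, averaged 74.6 ± 18.1 CPM. Ube2v2 and Tnip3 were below, Ube2v2 with 1.55, 0.125 and 1.57 CPM and Tnip3 with 0, 0 and 0.931 CPM.

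Of 9 kinases upstream of IkB and their partners, 8 were above 10 CPM. Map3k3 had 106, 177 and 185 CPM and Tbkbp1 had 115, 122 and 106 CPM, and Tank, a TRAF partner, averaged 59.5 ± 8.48 CPM. Map3k14, which encodes the noncanonical kinase NIK, had 19.0, 21.2 and 23.4 CPM and was above, whereas Map3k8 (Tpl2) had 6.80, 9.64 and 11.5 CPM and was not called. Of 12 genes of IkB turnover and cofactors 11 were above, among them Card9, an adaptor of fungal receptors, at 199, 175 and 182 CPM. Its partner Bcl10 averaged 77.5 ± 14.7 CPM, and the F-box genes Fbxw11 and Btrc, which target IkB, averaged 80.3 ± 11.0 and 16.6 ± 4.73 CPM.

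Of 9 TIR adaptors and IL-1 receptor genes, 6 were above 10 CPM. Myd88 had 117, 130 and 157 CPM, Tollip had 84.3, 91.2 and 115 CPM and Tirap had 63.1, 96.5 and 104 CPM. Ticam1, the adaptor TRIF, was also above at 29.4 ± 5.16 CPM, and Ticam2 (TRAM) was below with 1.55, 5.85 and 6.25 CPM, as was Il1rl1, the IL-33 receptor, with 6.41, 2.94 and 5.40 CPM. The decoy receptor for IL-1, Il1r2, averaged 87.8 ± 4.40 CPM.

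Known NF-kB target genes were above 10 CPM about as often as all genes. Of 21 listed, 11 were above 10 CPM, 7 were below, 1 was not called and 2 were not tested. Of the 19 tested, 57.9% were above and 36.8% below, against 58.8% and 28.3% of all genes tested. The median was 15.9 CPM, against 19.7 CPM for all listed genes. Marcksl1 had 188, 174 and 192 CPM, and the adhesion gene Vcam1 and the plasminogen activator gene Plau averaged 74.3 ± 19.3 and 54.3 ± 8.66 CPM. Il1b, which encodes interleukin-1 beta, had 35.7, 53.9 and 63.1 CPM. The chemokine gene Ccl3 had 42.1, 3.96 and 0.824 CPM, Ptgs2 had 10.9, 1.69 and 1.54 CPM and Ccl4 had 5.44, 1.37 and 0 CPM. These 3 genes were highest in replicate 1, the library with the most basophil, mast cell and erythroid marker RNA, whose part was not tested. Bcl2a1b and Bcl2a1d were at 0 in every library and Bcl2a1a averaged 0.407 CPM, but these near-identical copies can share reads, so their levels are uncertain.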

How the data were processed

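Messenger RNA libraries were made with a NEXTflex kit and read on a NextSeq500, per the labels' protocols. The authors used FastQC, STAR, featureCounts and edgeR with the builds mm10 and GRCh38, per the submitters' processing notes; their versions, the annotation and the strand setting are not given in the sources used here. The deposited unit was CPM per listed gene. Each library held 11463 entries, 44 of them repeats of a gene, which left 11419 genes whose CPM summed to 1000000. In 100% of values whole reads were recovered (tolerance 0.05 reads).

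An intercept was fitted with limma 3.58.1 in R 4.3.3 to log2(CPM + 1) and tested, two-sided, against log2(10 + 1), with a trended prior, over 11123 genes with at least 10 recovered reads; p-values were adjusted by Benjamini and Hochberg and calls made under 0.05. Differences on this scale understate those of low genes. edgeR 4.0.16 and DESeq2 1.42.0 on recovered reads were alternatives; for edgeR, the quasi-likelihood F of an intercept was computed from its fitted dispersions. The fits were tested on simulated data. Exon lengths and positions came from GENCODE vM21 (GRCm38, the assembly of mm10), promoters from RefSeq GRCm38.p6. Levels of single genes were compared with one another per kb. Medians and calls of groups of genes were also compared in CPM, which is not divided by length.

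Members, role lists and pathway lists were chosen with earlier results of these data known, so counts over lists are descriptions with no test. Named were the 4 highest and 2 lowest genes of each role, the 6 with the largest ratio between libraries, the 3 highest and 2 lowest of each pathway list, and genes of the 8 ratios; any of the 61 could be named. Adam17, Tnf, Ticam1, Il1r2, Il1b, Ptgs2, Ccl3, Ccl4 and Bcl2a1a were named beyond that rule after their values were seen. A further gene of the pathway lists is not reported here. Promoter windows that touch an annotated exon are not shown.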

Additional observations from a re-analysis of the deposited data

How the results depend on the processing

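No paired analysis was possible because the labels give 1 group. With the level set per kb (10 CPM per kb of exon), 19 of the 61 genes were above and 31 below. The pathway lists had 26 above and 41 below. Of all genes, 26.1% were above and 62.8% below. By role that setting gave 2 adaptors above and 6 below, 4 inhibitors above and 1 below, 2 kinases above and 4 below, 8 receptors below, and 1 transcription factor subunit above and 3 below. It turned the sign of the log2 level of Traf3 (-0.21), Traf2 (-0.42), Tab1 (-0.13), Traf6 (-1.23), Tab3 (-1.49), Nfkbie (-0.22), Tnfaip3 (-1.29), Nfkbid (-0.033), Ripk1 (-0.21), Ikbkb (-1.26), Ikbke (-0.51), Ikbkg (-0.99), Ripk3 (-0.16), Nfkbiz (-0.81), Tnfrsf13b (-0.85), Tnfrsf18 (-0.19), Tnfrsf26 (-0.35), Tnfrsf23 (-1.57), Nfkb2 (-0.44), Rel (-1.18), Cflar (-0.63), Fas (-0.27), Tank (-0.040), Map3k14 (-1.38), Btrc (-2.48) and Vcam1 (-0.26). At a level of 20 CPM, 4 inhibitors and 3 receptors were above and 8 receptors and 1 transcription factor subunit below. Of all genes, 44.3% were above and 42.2% below. Tab3 (-0.045), Tnfrsf13b (-0.44), Tnfrsf18 (-0.57), Tnfrsf23 (-0.84), Fas (-0.24) and Btrc (-0.29) turned at that level. At 5 CPM, 0 kinases, 0 genes of another role and 9 genes of the pathway lists were below, against 16.8% of all genes. Ripk2 (0.21), Tnfsf13 (0.34), Tnfaip8l1 (0.078), Relb (0.71), Zbp1 (0.80) and Map3k8 (0.75) turned at that level. With no filter on low reads, 1 gene of another role was below, against 28% of all genes.

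Leaving out 1 library at a time gave 11 to 17 of the 61 genes below, 0 to 1 kinases, 2 to 4 ligands and 1 to 2 genes of another role. Of all genes tested, 23.1% to 27.8% were then below. The log2 levels of 4 genes near 10 CPM changed sign: Tnfrsf23 ranged over -0.0043 to 0.14, Relb over -0.26 to 0.0074, Zbp1 over -0.40 to 0.27 and Map3k8 over -0.27 to 0.066. Zbp1 was at 0.063 with edgeR and 0.028 with DESeq2. Ripk3 over Ripk1 ranged over -0.16 to 0.24 and turned to -1.81 with no division by length and to -0.093 on the longest transcript, and Ikbkb over Chuk to 1.53 and 1.34 on those scales. The causes were not tested. In DESeq2 the level was subtracted from the fitted intercept, since fixed factors failed on simulated data. Replicate 1 limits precision: 10 CPM there was 51.5 reads.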
